A study of Homo sapiens with 77 samples.

Results

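The genes described here are 9 genes of the plasma cell program, PRDM1, POU2AF1, TNFRSF17, CD38, SDC1, SLAMF7, JCHAIN, MZB1 and FKBP11, taken by name. They are 9 of the 35813 genes in the first deposited RNA-seq count table and 9 of the 21455 genes in the second. A plasma cell is the end stage of a B cell, which leaves the germinal center, shuts down much of its B cell gene program and turns its endoplasmic reticulum over to antibody secretion. PRDM1 encodes BLIMP1, the repressor at the head of that switch, and it acts together with IRF4 against PAX5, BCL6 and BACH2. XBP1 serves the secretory side of the switch. EZH2, the enzyme that methylates histone H3 at lysine 27, and menin, the cofactor of the MLL1 methyltransferase complex, are chromatin regulators whose inhibition was tested in these lymphoma cells.

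The first table held KARPAS422, DB, Farage and SUDHL5, established human lines of diffuse large B cell lymphoma, each with DMSO or with the menin inhibitor MI-503 (800 nM for 3 days). The second table held KARPAS422 and SuDHL10, each as control (CTR) and with the EZH2 inhibitor EPZ-6438 (1 µM), the menin inhibitor VTP50469 (330 nM) or both, for 48 h in KARPAS422 and 24 h in SuDHL10. Per the study, KARPAS422, DB and SuDHL10 carry mutant EZH2 and Farage and SUDHL5 carry wild-type EZH2. Each of the 16 groups had 2 libraries, numbered 1 and 2. Nothing in the labels says that these came from separate cultures, so the p-values below measure the spread between libraries, which may be technical.

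Library totals ran from 13034958 to 54883332 counts in the first table and from 8956156 to 31573027 counts in the second. Depth went with treatment in DB, where the DMSO libraries held 14695930 and 15474692 counts and the MI-503 libraries 52236459 and 46170498 counts. The 6 B cell markers were above 0 in every library and summed to 2994 to 3929 CPM (counts scaled by TMM to a common library total) in the first table and to 2648 to 5824 CPM in the second. Summed markers of T and NK cells (8 genes) reached 190 CPM and 328 CPM in the 2 tables, those of myeloid cells (6 genes) 108 CPM and 87.9 CPM, and those of fibroblasts (4 genes) 9.98 CPM and 9.78 CPM. The MI-503 library 1 of Farage stood apart, with epithelial markers (8 genes) at 50.6 CPM and erythroid markers (5 genes) at 25.1 CPM, against 13.4 to 18.8 CPM and 0.348 to 0.641 CPM in the other 3 Farage libraries. So did the second KARPAS422 library with both inhibitors, with fibroblast markers at 9.78 CPM (3 of 4 above 1 CPM), against at most 1.64 CPM in the other KARPAS422 libraries of that table. It had 7 of 8 T and NK cell markers above 1 CPM, against 5 in the first library with both. Their sum was not raised, at 243 CPM against 328 CPM in that first library.

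The promoters of 6 of the 9 genes could be read from RefSeq (GRCh38.p14), as windows of 250 bases before and 50 bases after an annotated start. Those of 4 genes are shown, because CD38, SDC1 and MZB1 were among the genes that changed with the combined inhibitors, and CD38 and JCHAIN differed widely between lines. Each is printed 5′ to 3′ on the strand of the gene, with CG dinucleotides, the sites of DNA methylation, in capitals.
CD38, chr4:15778078-15778377, plus strand: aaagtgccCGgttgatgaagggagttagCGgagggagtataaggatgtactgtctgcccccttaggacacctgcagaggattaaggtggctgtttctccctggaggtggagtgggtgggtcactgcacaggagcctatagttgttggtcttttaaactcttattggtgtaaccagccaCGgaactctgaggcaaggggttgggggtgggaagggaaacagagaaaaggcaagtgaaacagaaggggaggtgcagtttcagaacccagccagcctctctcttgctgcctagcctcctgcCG
SDC1, chr2:20225426-20225725, minus strand: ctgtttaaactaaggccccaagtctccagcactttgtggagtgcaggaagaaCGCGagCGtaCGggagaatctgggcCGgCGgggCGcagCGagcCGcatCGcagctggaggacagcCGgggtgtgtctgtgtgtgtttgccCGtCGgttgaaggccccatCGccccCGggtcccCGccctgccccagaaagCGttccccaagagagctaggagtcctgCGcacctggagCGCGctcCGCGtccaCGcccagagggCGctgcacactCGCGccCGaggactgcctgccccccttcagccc
JCHAIN, chr4:70666459-70666758, minus strand: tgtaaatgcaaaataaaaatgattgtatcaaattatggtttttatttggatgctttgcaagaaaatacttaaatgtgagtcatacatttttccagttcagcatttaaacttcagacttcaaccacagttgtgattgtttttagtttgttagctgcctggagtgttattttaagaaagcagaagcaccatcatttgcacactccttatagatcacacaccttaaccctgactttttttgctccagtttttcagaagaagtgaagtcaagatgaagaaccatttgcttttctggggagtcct
MZB1, chr5:139389864-139390163, minus strand: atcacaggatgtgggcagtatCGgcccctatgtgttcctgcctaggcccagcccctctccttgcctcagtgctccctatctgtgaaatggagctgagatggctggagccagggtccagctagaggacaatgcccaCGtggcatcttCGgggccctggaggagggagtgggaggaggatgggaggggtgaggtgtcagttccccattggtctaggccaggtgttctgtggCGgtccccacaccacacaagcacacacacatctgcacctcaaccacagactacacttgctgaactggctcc
The printed SDC1 window held 27 CG dinucleotides, a number reached by 28.2% of 35116 promoter windows. A second SDC1 window, chr2:20225081-20225380, is not printed and held 23 (reached by 35.8%). CD38 and MZB1 held 4 each (75.5% of windows have at least that many) and JCHAIN held 0. Searched on both strands, the octamer ATTTGCAT, an interferon response element, the unfolded protein response element TGACGTGG and the BLIMP1 core GAAAGT occurred in 1.77%, 3.57%, 0.73% and 13.3% of all windows, and in none of the windows of PRDM1, CD38, SDC1, JCHAIN, MZB1 and FKBP11.

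The 4 lines without drug carried different parts of the program. KARPAS422 had the highest POU2AF1 and SDC1 levels and measurable JCHAIN, but almost no CD38 or MZB1. Farage had the highest SLAMF7, CD38 and MZB1, DB had the highest FKBP11, and SUDHL5 had the highest JCHAIN and TNFRSF17. Per kilobase of exon (GENCODE v44), the highest member was POU2AF1 in KARPAS422 (227 CPM per kb) and DB (52.0 CPM per kb), MZB1 in Farage (34.7 CPM per kb) and JCHAIN in SUDHL5 (151.6 CPM per kb). In bulk RNA, fewer cells expressing a gene and less RNA per cell cannot be told apart. CPM were scaled over all 16 libraries of a table, whereas log2 fold changes come from fits scaled within the libraries compared, so for a member at 1 CPM or more the 2 differ by up to 0.14 on the log2 scale. The SE given here is the size of the log2 fold change divided by the square root of the F of its test. It can fall below the counting error where a group holds few counts.

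Of the regulators, PRDM1 (chr6:105993463-106109939, GENCODE v44 on hg38) was at 7.32 and 7.23 CPM in KARPAS422 and at 7.52 and 8.58 CPM in Farage. It was at 0.274 and 0.393 CPM in DB and at 0.721 and 0.620 CPM in SUDHL5. The lines thus fell into a higher and a lower pair with no overlap. KARPAS422 and Farage differed by a log2 fold change of −0.28 (SE 0.14, adjusted p = 0.0973, edgeR quasi-likelihood test over all genes), a call lost in 5 of the 8 fits that leave out a library, with the highest adjusted p without the second Farage library (−0.17, adjusted p = 0.451), and with DESeq2 (adjusted p = 0.209). DB and SUDHL5 differed by −1.07 (SE 0.40, adjusted p = 0.0263), which rested on counts of 4 and 6 in DB and was lost without the first DB library (adjusted p = 0.172) or the first SUDHL5 library (adjusted p = 0.188).

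POU2AF1 (chr11:111352255-111455630), the B cell coactivator of octamer factors OCA-B, was at 1573 and 1604 CPM in KARPAS422. It was lower in SUDHL5 (649 and 602 CPM), in DB (371 and 358 CPM) and in Farage (207 and 205 CPM). All 6 pairs of lines differed beyond the spread of the libraries, by 0.69 (SE 0.04) between DB and Farage up to 2.82 (SE 0.04) between KARPAS422 and Farage on the log2 scale.

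Of the receptors, TNFRSF17 (chr16:11965210-11968068), which encodes the BAFF and APRIL receptor BCMA, ran from 0.964 and 1.07 CPM in KARPAS422 to 4.57 and 4.68 CPM in SUDHL5. DB (2.13 and 2.16 CPM) and Farage (1.95 and 2.18 CPM) stood between them and did not differ beyond their spread (fitted log2 difference, DB minus Farage, −0.08, SE 0.26, adjusted p = 0.789, against 0.05 from the CPM). CD38 (chr4:15778275-15853232), the NAD-consuming ectoenzyme of plasma cells, was at 0.143 and 0.142 CPM in KARPAS422, 8 counts in each library. It was higher in SUDHL5 (4.95 and 4.68 CPM), in DB (25.4 and 25.3 CPM) and in Farage (51.6 and 52.3 CPM), and every neighbouring pair in that order differed in the fit. The smallest of these differences was DB minus Farage, −1.17 on the log2 scale in the fit (SE 0.08) and −1.04 from the CPM.

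SDC1 (chr2:20200797-20225433), the surface proteoglycan CD138 of plasma cells, was at 17.0 and 15.6 CPM in KARPAS422, at 3.87 and 3.99 CPM in SUDHL5 and at 1.30 and 1.44 CPM in DB. Both Farage libraries had 0 counts. Against 3 counts over that group, a floor of 0.1 CPM, SDC1 was at least 163-fold higher in KARPAS422, 39.3-fold higher in SUDHL5 and 13.7-fold higher in DB. SLAMF7 (chr1:160739057-160754821), the adhesion receptor CS1, showed the converse, with 142 and 143 CPM in Farage against 0.343 to 1.44 CPM in the other 3 lines. Those 3 lines were close: their SLAMF7 calls were lost or turned without the first SUDHL5 library (KARPAS422 against SUDHL5, log2 −0.63 with it and 0.07 without, adjusted p = 0.0177 and 0.895; DB against SUDHL5, −1.37 and −0.67, adjusted p = 0.00295 and 0.296) or without the first DB library (KARPAS422 against DB, 0.74 and 0.36, adjusted p = 0.0805 and 0.488). The last was also lost without the second KARPAS422 library (adjusted p = 0.153), and all 3 were lost when libraries were thinned to equal depth (adjusted p = 0.937, 0.224 and 0.251 by edgeR).

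Of the secretory genes, JCHAIN (chr4:70655541-70681817), the joining chain of polymeric IgM and IgA, was at 227 and 242 CPM in SUDHL5 and at 46.1 and 43.9 CPM in KARPAS422. It was at 2.37 and 2.69 CPM in Farage and at 0.686 and 0.720 CPM in DB (10 and 11 counts). DB minus SUDHL5 was −8.41 on the log2 scale (SE 0.12, which leaves out part of the counting error of DB). SUDHL5 was also the line with the most heavy chain IGHM (2818 and 2540 CPM).

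MZB1 (chr5:139387467-139390081), a cochaperone of immunoglobulin assembly, was at 57.4 to 79.7 CPM in DB, Farage and SUDHL5 and at 0.339 and 0.675 CPM in KARPAS422. The smallest of its differences among those 3 lines was 0.25 (SE 0.07, adjusted p = 0.00400, Farage above SUDHL5), and the smallest to KARPAS422 was −6.83 (SE 0.12, KARPAS422 minus DB, on 19 and 38 counts in KARPAS422). KARPAS422 nonetheless carried IGKC at 922 and 958 CPM and IGHG1 at 644 and 674 CPM. FKBP11 (chr12:48921518-48926474), a prolyl isomerase of the secretory pathway, varied least, from 15.4 and 13.5 CPM in SUDHL5 to 41.3 and 41.1 CPM in DB. KARPAS422 and Farage did not differ in FKBP11 beyond their spread (fitted log2 difference −0.04, SE 0.07, adjusted p = 0.643). Its sign depends on the scaling, since the CPM give 0.09 and a fit scaled by total counts alone gives 0.15 (adjusted p = 0.0609).

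By the rule of an adjusted p under 0.1, 8 or 9 of the 9 genes were called in each of the 6 pairs of lines. The count was 9 between KARPAS422 and DB (81.2% of all genes called), 8 between KARPAS422 and Farage (80.4%), 9 between KARPAS422 and SUDHL5 (81.8%), 8 between DB and Farage (82.1%), 9 between DB and SUDHL5 (81.4%) and 9 between Farage and SUDHL5 (78.3%). Most genes were called in each pair, and the members' counts are near that background.

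**Figure D1:**
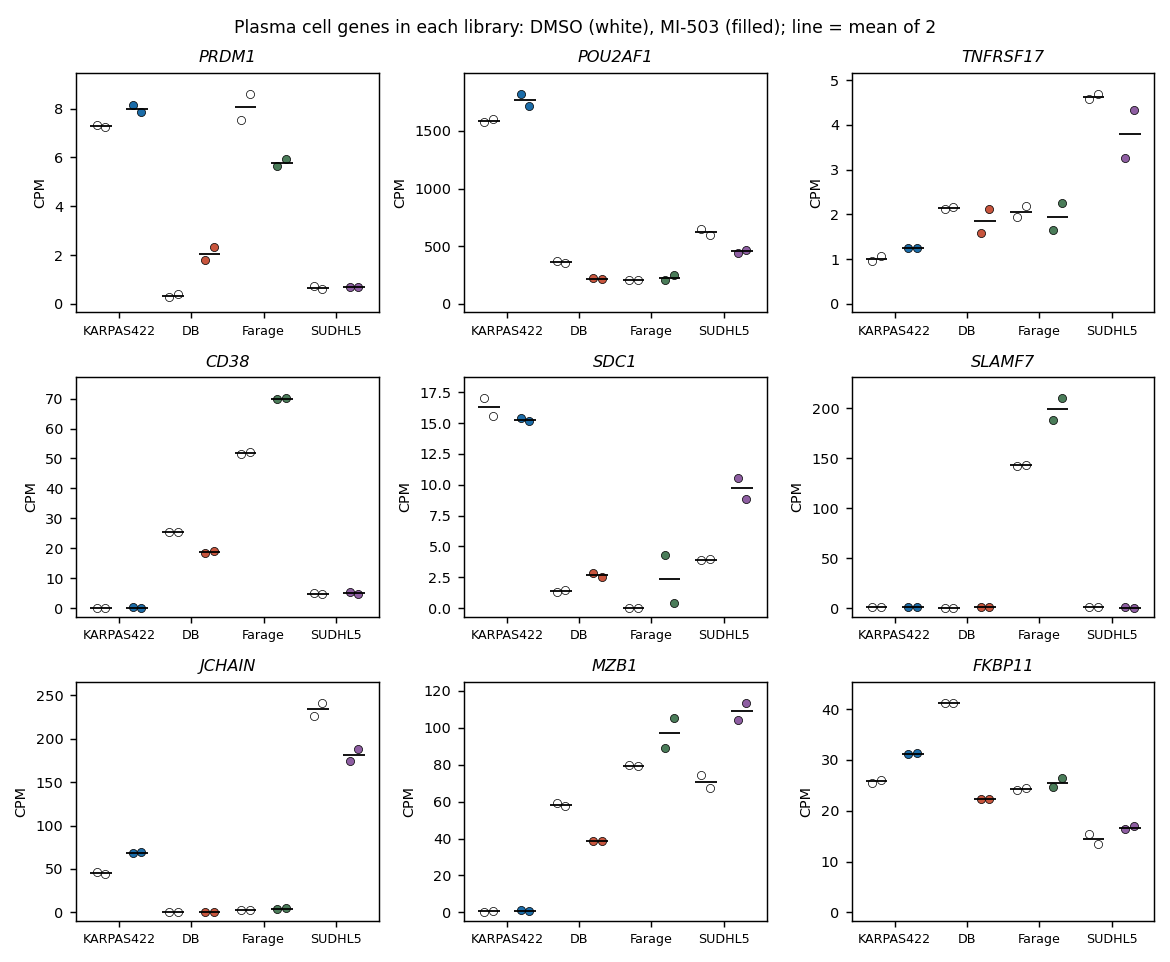
Level of each of the 9 genes (CPM, linear axis) in the 16 libraries of the first table, with DMSO libraries in white, MI-503 libraries filled and a bar at the mean of 2. SLAMF7 is high in Farage alone (142 to 210 CPM), and PRDM1 in DB rises from 0.274 and 0.393 CPM to 1.78 and 2.33 CPM with MI-503.

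MI-503 moved the program differently in each line. In DB, PRDM1 and SDC1 rose while POU2AF1, CD38, MZB1 and FKBP11 fell. In KARPAS422 every called gene rose and none fell, with MZB1, SLAMF7 and JCHAIN changed most, and in Farage PRDM1 fell while CD38, SLAMF7, JCHAIN and MZB1 rose. In SUDHL5 SDC1 and MZB1 rose, and POU2AF1 and JCHAIN fell.

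In KARPAS422, 5 of 8 tested genes were called, all higher and 3 of them by more than 1.5-fold, against 51.8% of all genes called (25.5% higher, 26.3% lower, and 10.1% past 1.5-fold). JCHAIN went from 46.1 and 43.9 CPM to 68.5 and 69.4 CPM, a log2 fold change of 0.63 (SE 0.05, adjusted p = 2.18e-06). FKBP11 went from 25.5 and 26.1 CPM to 31.2 and 31.3 CPM (0.30, SE 0.06, adjusted p = 0.00124). In both genes the treated libraries lay above both DMSO libraries. POU2AF1 rose by 0.18 on the log2 scale (SE 0.02, adjusted p = 0.000150), from 1573 and 1604 CPM to 1818 and 1718 CPM. MZB1 rose from a level near 0, 0.339 and 0.675 CPM to 1.03 and 0.985 CPM (1.00, SE 0.37, adjusted p = 0.0458), and SLAMF7 from 0.803 and 0.870 CPM to 1.22 and 1.53 CPM (0.72, SE 0.28, adjusted p = 0.0576). Both low calls were fragile: they were lost without the first DMSO library (adjusted p = 0.270 for MZB1 and 0.163 for SLAMF7) or the second MI-503 library (0.163 and 0.242), MZB1 also without the first MI-503 library (0.203), and both with DESeq2 (0.116 and 0.158). PRDM1 stayed at 7.32 and 7.23 CPM against 8.15 and 7.84 CPM (0.16, SE 0.09, adjusted p = 0.205), SDC1 and TNFRSF17 did not pass (adjusted p = 0.449 and 0.349), and CD38, with 2 to 13 counts a library, was below the filter. The sum of 6 myeloid markers rose with MI-503 in this line, from 53.2 to 53.3 CPM over the DMSO libraries to 107 to 108 CPM over the treated ones. Of the 6, 1 or 2 were at 0 in the DMSO libraries and 0 to 2 in the treated ones. Only 1 of the 6 was above 1 CPM in each of these libraries, so the sum rests on 1 gene. Over the first table CD33 held 14845 counts and LYZ, the next, 247. The part of this rise in the members' values was not tested.

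In DB, 7 of 9 genes were called, 3 higher and 4 lower and 6 by more than 1.5-fold, against 69.2% of all genes called (34.5% higher, 34.7% lower, and 26.4% past 1.5-fold). PRDM1 went from 4 and 6 counts (0.274 and 0.393 CPM) to 96 and 112 counts (1.78 and 2.33 CPM), a log2 fold change of 2.59 (SE 0.38, adjusted p = 7.63e-05). Even so its treated level stayed below that of KARPAS422 and Farage. SDC1 rose from 1.30 and 1.44 CPM to 2.82 and 2.56 CPM (0.96, SE 0.23, adjusted p = 0.00314), a call that was lost when all 16 libraries shared 1 fit (adjusted p = 0.234). Epithelial markers (8 genes), of cells that also make SDC1, summed to 19.5 and 21.3 CPM in the DMSO libraries and to 30.8 and 31.4 CPM in the treated ones. In each DMSO library 2 of the 8 were above 1 CPM and 4 at 0, and in each treated one 3 and 1. The treated libraries were deeper, so the change in markers at 0 cannot be told apart from depth. KRT10 held the most counts of the 8 over the first table (12265). The part of these markers in the SDC1 value was not tested. FKBP11 fell from 41.3 and 41.1 CPM to 22.3 and 22.2 CPM (−0.90, SE 0.06, adjusted p = 5.94e-08), and POU2AF1 from 371 and 358 CPM to 221 and 220 CPM (−0.73, SE 0.03, adjusted p = 8.76e-10). MZB1 fell from 59.3 and 57.4 CPM to 38.8 and 38.7 CPM (−0.60, SE 0.05, adjusted p = 4.66e-07), and CD38 from 25.4 and 25.3 CPM to 18.6 and 19.1 CPM (−0.44, SE 0.07, adjusted p = 0.000105). The treated and the DMSO libraries did not overlap in any of these 6 genes. With 2 libraries a group this says little, since JCHAIN and TNFRSF17, not called, did not overlap either. The share of all genes without overlap was not computed. SLAMF7, at 0.343 and 0.655 CPM against 0.965 and 0.915 CPM, was called (0.89, SE 0.41, adjusted p = 0.0744) but not without the first DMSO library (adjusted p = 0.427), the first MI-503 library (0.222) or the second (0.165), and not by DESeq2 (0.293). JCHAIN (adjusted p = 0.111) and TNFRSF17 (adjusted p = 0.454) did not pass.

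In DB the treated libraries were the deeper ones. IGKC had 0 counts in both DMSO libraries of DB and 1.09 and 1.12 CPM in the MI-503 libraries, which is 0.116% and 0.119% of its mean in KARPAS422 and 0.885% and 0.908% of its mean in Farage. The same share of the PRDM1 level is at most 0.0087 CPM from KARPAS422 and 0.073 CPM from Farage, where 1.78 and 2.33 CPM were measured. The part of such a share in the PRDM1 result was not tested. The same share of the SLAMF7 level of Farage is 1.3 CPM, above the 0.965 and 0.915 CPM measured in the treated DB libraries, and its part in the SLAMF7 result was not tested. The PRDM1 call held when all libraries were thinned to equal depth. Thinning cannot separate treatment from whatever else differed between the shallow and the deep libraries.

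In Farage, 6 of 8 tested genes were called, 5 higher and 1 lower and 1 by more than 1.5-fold, against 27% of all genes called (12.3% higher, 14.7% lower, and 3.54% past 1.5-fold). CD38 rose from 51.6 and 52.3 CPM to 69.8 and 70.1 CPM (0.37, SE 0.07, adjusted p = 0.00351) and SLAMF7 from 142 and 143 CPM to 188 and 210 CPM (0.43, SE 0.04, adjusted p = 8.06e-05). The treated libraries of both receptors lay above both controls. JCHAIN rose from 2.37 and 2.69 CPM to 4.11 and 4.46 CPM (0.71, SE 0.22, adjusted p = 0.0463) and MZB1 from 79.7 and 79.1 CPM to 88.8 and 105 CPM (0.25, SE 0.05, adjusted p = 0.00646). PRDM1 fell from 7.52 and 8.58 CPM to 5.64 and 5.92 CPM (−0.53, SE 0.15, adjusted p = 0.0378), with no overlap. POU2AF1 changed by 0.11 (SE 0.04, adjusted p = 0.0846), from 207 and 205 CPM to 210 and 248 CPM. Calls were lost without the first DMSO library for PRDM1 (adjusted p = 0.108), POU2AF1 (0.320) and JCHAIN (0.218), and without the second for those genes (0.259, 0.411 and 0.159) and MZB1 (0.118). The POU2AF1 call was also lost without the second MI-503 library (0.273), and DESeq2 did not call PRDM1 (0.163) or POU2AF1 (0.213). FKBP11 (adjusted p = 0.908) and TNFRSF17 (adjusted p = 0.821) did not pass. Depth was uneven in Farage as well, with 14556778 and 15921296 counts for DMSO and 16098639 and 52491493 counts for MI-503. Each called gene was higher in the deep treated library than in the shallow one, by most in POU2AF1 and MZB1. Thinning to equal depth left 6 members called.

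SDC1 in Farage had 0 counts in both DMSO libraries, 73 counts (4.29 CPM) in the first MI-503 library and 19 counts (0.396 CPM) in the second, and was below the filter. Against the floor of 3 counts over the DMSO group these are at least 42.8-fold and 3.96-fold higher. The first MI-503 library is the library with raised epithelial and erythroid markers, with the keratin KRT14 at 19.4 CPM (at most 0.0626 CPM in the other Farage libraries) and the globin HBB at 24.5 CPM (at most 0.139 CPM), and SDC1 is also made by epithelia. The part of that RNA in the SDC1 value was not tested.

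In SUDHL5, 6 of 9 genes were called, 3 higher and 3 lower and 3 by more than 1.5-fold, against 55% of all genes called (26.3% higher, 28.7% lower, and 14.1% past 1.5-fold). SDC1 rose from 3.87 and 3.99 CPM to 10.6 and 8.84 CPM (1.32, SE 0.16, adjusted p = 0.000169) and MZB1 from 74.4 and 67.2 CPM to 104 and 114 CPM (0.64, SE 0.04, adjusted p = 5.77e-06). POU2AF1 fell from 649 and 602 CPM to 440 and 472 CPM (−0.43, SE 0.04, adjusted p = 2.29e-05) and JCHAIN from 227 and 242 CPM to 174 and 188 CPM (−0.34, SE 0.06, adjusted p = 0.00121). Each treatment had a deep library (54653277 counts for DMSO, 44138252 counts for MI-503) and a shallow library (14824148 and 13034958 counts). None of the 4 genes overlapped between treatments, but neither did TNFRSF17, which was not called. The share of all genes without overlap was not computed. Within the deep and within the shallow pair, the differences on the log2 CPM scale were 1.19 and 1.41 for SDC1, 0.61 and 0.63 for MZB1, −0.46 and −0.45 for POU2AF1 and −0.27 and −0.47 for JCHAIN. SLAMF7 fell in the fit by 1.49 (SE 0.56, adjusted p = 0.0537), but by 2.44 in the deep pair (1.44 to 0.266 CPM) and by 0.16 in the shallow pair (0.757 to 0.680 CPM). It lost its call without the first DMSO library (adjusted p = 0.499) or the second MI-503 library (0.398) and with DESeq2 (0.186). IGKC was at 1.14 CPM in the deep DMSO library, at 1.43 CPM in the deep MI-503 library and at 0 in the shallow ones. At that share of the IGKC mean of Farage, the SLAMF7 level of Farage would give 1.3 and 1.6 CPM in the deep libraries, where 1.44 and 0.266 CPM were measured. The share from KARPAS422 would give at most 0.0013 CPM. Its part in the SLAMF7 values was not tested. FKBP11, from 15.4 and 13.5 CPM to 16.3 and 17.0 CPM (0.21, SE 0.09, adjusted p = 0.0675), lost its call without the second DMSO library (0.209), the first MI-503 library (0.169) or the second (0.130), and with DESeq2 (0.275). PRDM1 was at 0.721 and 0.620 CPM against 0.680 and 0.701 CPM (0.04, SE 0.43, adjusted p = 0.948), and CD38 (adjusted p = 0.854) and TNFRSF17 (adjusted p = 0.342) did not pass.

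**Figure D2:**
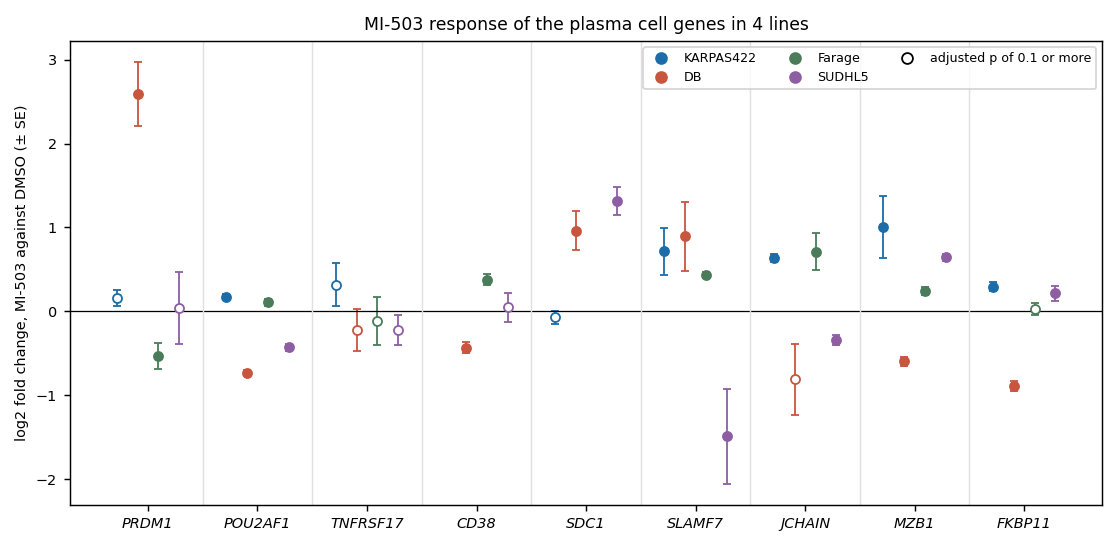
Log2 fold change of MI-503 against DMSO (vertical axis, bars are the SE, the fold change over the square root of the test's F) for each tested gene by line, filled where the adjusted p is under 0.1. PRDM1 stands at 2.59 in DB and −0.53 in Farage, MZB1 at −0.60 in DB and 0.64 in SUDHL5, and SDC1 is not shown in Farage, nor CD38 in KARPAS422, as these were below the filter.

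Whether the response itself differed between lines was tested with interaction terms in a fit of all 16 libraries. A difference among the 4 lines was called for 8 of the 9 genes, against 57.2% of all genes. TNFRSF17 was the exception (adjusted p = 0.429). By pairs of lines, 5 genes were called between KARPAS422 and DB (38.3% of all genes), 3 between KARPAS422 and Farage (19.5%), 4 between KARPAS422 and SUDHL5 (30.6%), 7 between DB and Farage (38.7%), 6 between DB and SUDHL5 (36.6%) and 5 between Farage and SUDHL5 (31.8%). The response of PRDM1 in DB exceeded that in Farage by 3.08 (SE 0.35, adjusted p = 1.67e-06), that in SUDHL5 by 2.58 (SE 0.43, adjusted p = 0.000157) and that in KARPAS422 too (KARPAS422 minus DB −2.43, SE 0.35, adjusted p = 2.65e-05). For POU2AF1 the response in DB was below that in Farage by 0.88 (−0.88, SE 0.07, adjusted p = 2.82e-08) and below that in SUDHL5 by 0.29 (−0.29, SE 0.07, adjusted p = 0.00334). For MZB1 it was below that in SUDHL5 (−1.23, SE 0.10, adjusted p = 5.68e-08) and below that in Farage (−0.89, SE 0.10, adjusted p = 2.00e-06). FKBP11 showed the same order, with DB below Farage (−0.97, SE 0.10) and KARPAS422 above DB (1.20, SE 0.09, adjusted p = 1.12e-08). The JCHAIN response was higher in KARPAS422 than in SUDHL5 by 0.99 (SE 0.07, adjusted p = 3.53e-08). The terms for SDC1 that involve Farage rest on a group at 0 and are not given.

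The combination table restricts what can be said. PRDM1, TNFRSF17, JCHAIN and FKBP11 are listed at 0 in all 16 of its libraries. So are 368 of the 7629 genes (4.82%) with over 1000 counts in the KARPAS422 DMSO libraries of the first table, among them CDK2 (mean count 7590), a cell cycle kinase, and ARPC1B (2904), an actin nucleation subunit. KARPAS422 had 2580 and 2472 counts of JCHAIN in the first table. No change is therefore given for those 4 genes, and POU2AF1, CD38, SDC1, SLAMF7 and MZB1 remain. In the controls, SuDHL10 differed from KARPAS422 in all 4 tested genes (62.4% of all genes called), with POU2AF1 lower (484 and 492 CPM against 1702 and 1610 CPM, log2 −1.80, SE 0.12) and CD38 higher (19.3 and 19.8 CPM against 3.67 and 3.54 CPM, 2.40, SE 0.20). MZB1 was also higher in SuDHL10 (217 and 167 CPM against 2.345 and 2.1 CPM, 6.40, SE 0.22). SDC1 had 0 and 3 counts in SuDHL10 against 495 and 791 counts in KARPAS422, a ratio of 510 (95% exact interval for counting error alone 174 to 2470).

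In KARPAS422, CD38 rose with each inhibitor and rose further with both, and SDC1, the other classical surface marker, fell. SLAMF7 rose with both inhibitors together, from 2 and 11 counts in the controls to 82 and 83 counts. The 2 libraries with both inhibitors were the most different pair of all groups, with a chi-square of 50.3 per gene between them against 1.76 to 29.6 in the other groups. Without the second of them, the one with raised fibroblast markers, the fold changes of both inhibitors against control were 3.64 for CD38 (adjusted p = 8.915e-07), −1.51 for SDC1 (4.422e-05) and 3.46 for SLAMF7 (0.0236) by edgeR, and MZB1 (0.68, 0.204) and POU2AF1 (−0.15, 0.181) were not called. The part of those markers in these values was not tested.

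CD38 was at 3.67 and 3.54 CPM in control, at 14.8 and 15.7 CPM with EPZ-6438, at 14.1 and 14.8 CPM with VTP50469 and at 46.4 and 31.7 CPM with both. No 2 of these groups overlapped except those of the single agents. The log2 fold changes against control were 2.04 (SE 0.22, adjusted p = 0.00640), 2.00 (SE 0.21, adjusted p = 0.0111) and 3.40 (SE 0.22, adjusted p = 0.000236). With both inhibitors CD38 exceeded EPZ-6438 alone by 1.36 (SE 0.19, adjusted p = 0.0128) and VTP50469 alone by 1.41 (SE 0.19, adjusted p = 0.00373). The call against EPZ-6438 was lost without the first VTP50469 library (adjusted p = 0.197) or the second EPZ-6438 library (0.493), and that against VTP50469 without the first VTP50469 library (0.171). The calls of the single agents were lost without the second EPZ-6438 library (0.189 and 0.188), that of VTP50469 also without the first VTP50469 library (0.395).

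SDC1 was at 38.7 and 40.5 CPM in control, 34.3 and 36.0 CPM with EPZ-6438, 28.8 and 26.6 CPM with VTP50469 and 14.4 and 16.1 CPM with both. The 4 groups did not overlap and followed that order. With both inhibitors SDC1 fell by 1.42 on the log2 scale (−1.42, SE 0.09, adjusted p = 0.000246), and it lay below EPZ-6438 alone (−1.21, SE 0.09, adjusted p = 0.00313) and VTP50469 alone (−0.90, SE 0.09, adjusted p = 0.00226). These 2 calls were lost without the second EPZ-6438 library (0.311) and without the first VTP50469 library (0.137). VTP50469 alone gave −0.52 (SE 0.09, adjusted p = 0.0467), which was lost without either control, either VTP50469 or either EPZ-6438 library (0.193 to 1), and EPZ-6438 alone gave −0.21 (SE 0.09, adjusted p = 0.195).

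SLAMF7 was at 0.156 and 0.563 CPM in control, 0.529 and 0.186 CPM with EPZ-6438, 0.824 and 0.206 CPM with VTP50469 and 4.30 and 4.59 CPM with both. Only the libraries with both inhibitors stood apart from the other 6. Against control the log2 fold change was 3.52 (SE 0.95, adjusted p = 0.0268) with both, on 2 and 11 counts in the controls, and it was lost without the first control library (2.90, adjusted p = 0.140). Against EPZ-6438 alone it was 3.66 (SE 0.98, adjusted p = 0.0589) and against VTP50469 alone 3.06 (SE 0.92, adjusted p = 0.0490), and these were lost without 4 and 3 of the libraries, among them the second EPZ-6438 library (0.493 and 0.113) and the first VTP50469 library (0.250 and 0.203).

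MZB1 was at 2.345 and 2.1 CPM in control and at 3.67 and 6.41 CPM with both inhibitors (1.14, SE 0.40, adjusted p = 0.0643), with 4.13 and 2.80 CPM for EPZ-6438 (adjusted p = 0.445) and 2.79 and 2.94 CPM for VTP50469 (adjusted p = 0.825). Its call was lost in 7 of the 8 fits that leave out a library (0.138 to 0.235 in those 7) and kept only without the first library with both inhibitors. The highest MZB1 level was that of the library with raised fibroblast markers. POU2AF1 was at 1702 and 1610 CPM in control, 1390 and 1362 CPM with EPZ-6438, 1604 and 1506 CPM with VTP50469 and 1545 and 1280 CPM with both. The fold change with both was −0.27 (SE 0.10, adjusted p = 0.0801) where the median of all genes was 0.101, and it was −0.04 (adjusted p = 0.382) when libraries were scaled by total counts alone. It was lost without the first control library (0.209), either VTP50469 library (0.336 and 0.212), the second EPZ-6438 library (0.331) or the second library with both (0.181). POU2AF1 with EPZ-6438 gave −0.31 (SE 0.10, adjusted p = 0.108) and was called with the replicate number as a block (−0.31, adjusted p = 0.0859).

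In counts, 1 of 5 genes was called with EPZ-6438, higher (18.3% of all genes, 8.27% higher and 10% lower), and 2 of 5 with VTP50469, 1 higher and 1 lower (3.38% of all genes, 3.18% higher and 0.197% lower). With both, 5 of 5 were called, 3 higher and 2 lower (48.7%, with 23.5% higher and 25.2% lower), and 4 passed a fold of 1.5 (35% of all genes). With both inhibitors 3 of 5 were called against EPZ-6438 alone (20.9%) and 3 of 5 against VTP50469 alone (38.1%). The block changed the EPZ-6438 count to 2, through POU2AF1. A departure from additivity on the log2 scale was called by edgeR for 0 of 5 genes, with 2 at an unadjusted p under 0.05, and for 0 of all 13223 genes (769 at an unadjusted p under 0.05), while DESeq2 called 0 of the 5 and 222 of all genes. The estimates were −0.64 for CD38 (SE 0.29, adjusted p = 0.718), −0.68 for SDC1 (SE 0.13, adjusted p = 0.718) and 3.20 for SLAMF7 (SE 1.31, adjusted p = 0.718). Without the first library with both inhibitors, CD38 (−1.17, adjusted p = 0.0195) and SDC1 (−0.83, adjusted p = 0.0204) were called below additivity, and POU2AF1 lay below EPZ-6438 alone (−0.32, adjusted p = 0.0115).

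**Figure D3:**
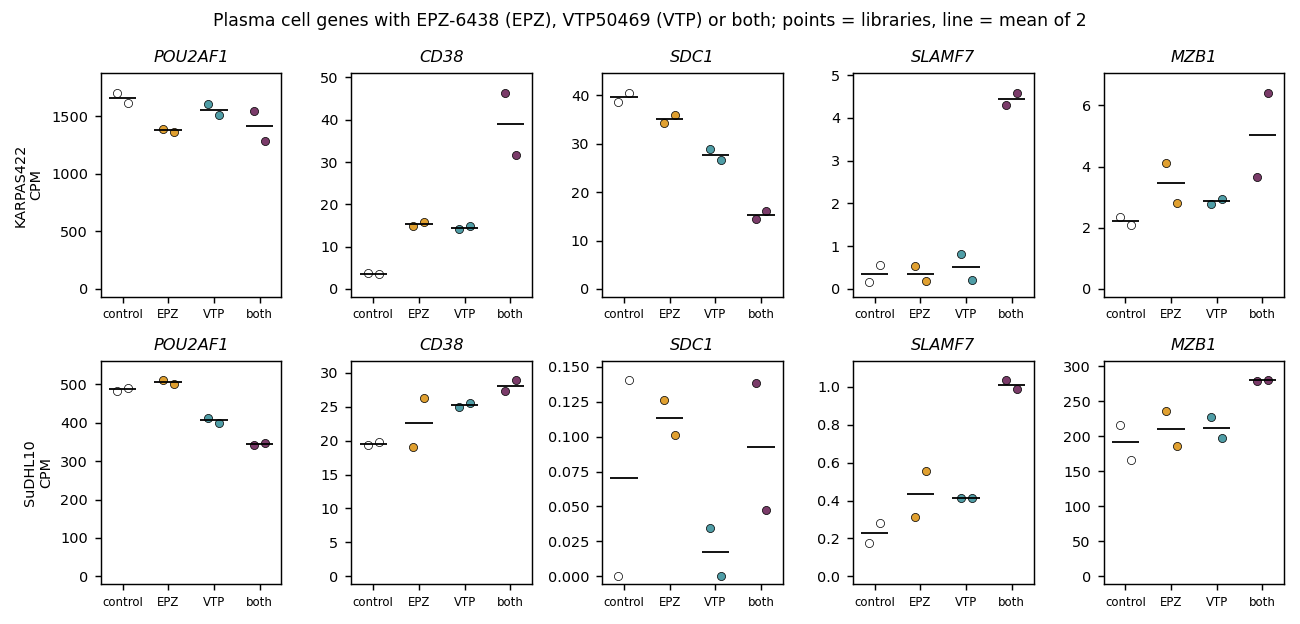
Level of the 5 measurable genes (CPM, linear axes that differ between panels) in each library of KARPAS422 and SuDHL10 with control, EPZ-6438, VTP50469 or both, with a bar at the mean of 2. CD38 in KARPAS422 climbs from 3.54 and 3.67 CPM in control to 31.7 and 46.4 CPM with both, while SDC1 falls from 38.7 and 40.5 CPM to 14.4 and 16.1 CPM.

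In SuDHL10, all 4 tested genes were called with both inhibitors, 3 higher and 1 lower (21.6% of all genes called, 13.7% higher and 7.93% lower), and SDC1 was below the filter with at most 3 counts a library. POU2AF1 went from 484 and 492 CPM to 343 and 347 CPM (−0.47, SE 0.08, adjusted p = 0.00488), SLAMF7 from 0.176 and 0.281 CPM to 1.04 and 0.989 CPM (2.11, SE 0.41, adjusted p = 0.0104). The SLAMF7 change rests on 3 and 6 counts in the controls and 15 and 21 counts with both. CD38 went from 19.3 and 19.8 CPM to 27.3 and 28.9 CPM (0.56, SE 0.14, adjusted p = 0.0320) and MZB1 from 217 and 167 CPM to 279.8 and 280.4 CPM (0.58, SE 0.15, adjusted p = 0.0342). No treated library overlapped a control in these 4 genes, though the share of all genes without overlap was not computed. Of the 4, 1 gene, SLAMF7, passed a fold of 1.5 (11.8% of all genes). The CD38 call was lost without the first (0.130) or the second (0.199) library with both inhibitors, and the MZB1 call without either of those (0.172 and 0.168) or the second control (0.191).

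The single agents in SuDHL10 gave no call by edgeR among the 4 genes. With EPZ-6438, 17.5% of all genes were called (12.1% higher and 5.39% lower), DESeq2 called 0 of the 4 genes as well, and by either tool 0 had an unadjusted p under 0.05. CD38 was at 19.1 and 26.2 CPM with EPZ-6438 and was called without the first EPZ-6438 library (0.41, adjusted p = 0.0487). With VTP50469 edgeR called 0 of 11409 genes (724 at an unadjusted p under 0.05, and 10 by DESeq2) and, like DESeq2, 0 of the 4, of which POU2AF1 (411 and 401 CPM) and CD38 (25.0 and 25.6 CPM) had an unadjusted p under 0.05. With the replicate number as a block these became calls, at −0.25 (adjusted p = 0.0695) for POU2AF1 and 0.40 (adjusted p = 0.0642) for CD38. Over all genes the block raised the calls with VTP50469 from 0 to 463.

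Against the single agents, both inhibitors lowered POU2AF1 below EPZ-6438 (−0.54, SE 0.08, adjusted p = 0.0137, 4.47% of all genes called), a call lost without either library with both (0.239 and 0.235). With the block CD38 (0.33, adjusted p = 0.0273), SLAMF7 (1.18, adjusted p = 0.0451) and MZB1 (0.44, adjusted p = 0.00182) were called above EPZ-6438 as well, while calls over all genes went from 510 to 3790. Against VTP50469, SLAMF7 alone was called (1.30, SE 0.37, adjusted p = 0.0767, 11.5% of all genes), and it was lost without any of the VTP50469 libraries (0.288 and 0.291) or of the libraries with both (0.349 and 0.289) and with DESeq2 (0.277). The block added POU2AF1 (−0.22, adjusted p = 0.0142) and MZB1 (0.43, adjusted p = 0.00142), while calls over all genes went from 1308 to 5761. A departure from additivity was called by edgeR for 0 of the 4 genes, with 1 at an unadjusted p under 0.05, and by DESeq2 for 0 (0.0526% of all genes by edgeR). With the block POU2AF1 departed by −0.29 (adjusted p = 0.0505), as did 2544 of 11409 genes, against 6 without it.

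**Figure D4:**
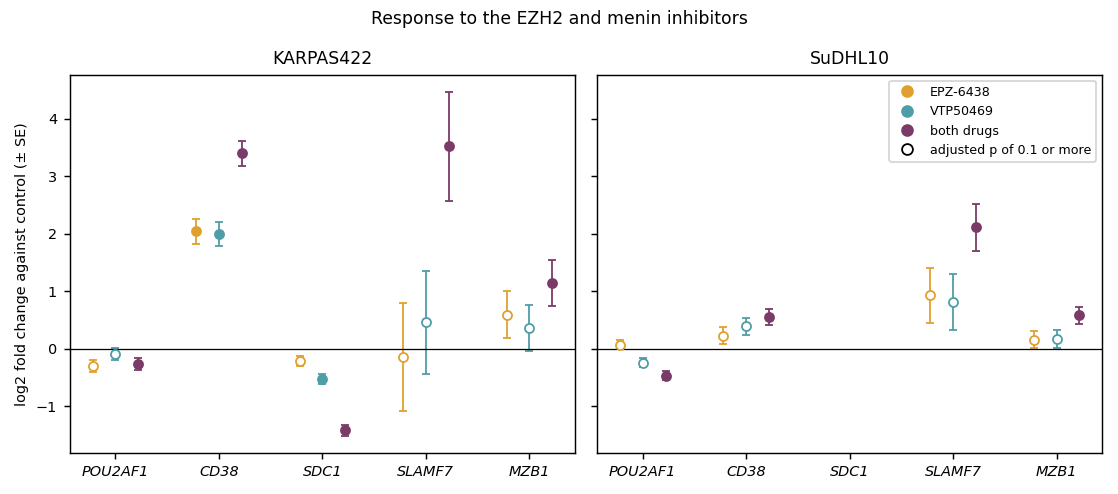
Log2 fold change against control with EPZ-6438, VTP50469 or both (vertical axis, bars are the SE, the fold change over the square root of the test's F), filled where the adjusted p is under 0.1, in KARPAS422 (48 h) and SuDHL10 (24 h). With both inhibitors CD38 stands at 3.40 in KARPAS422 and 0.56 in SuDHL10, and SLAMF7 at 3.52 and 2.11. SLAMF7 had 2 and 11 counts in the controls of KARPAS422 and 3 and 6 in those of SuDHL10.

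Menin inhibitors were given to KARPAS422 in both experiments, at different doses and for different times, so the values stand side by side with no comparison. MI-503 at 800 nM for 3 days gave log2 fold changes of 0.18 for POU2AF1, −0.07 for SDC1, 0.72 for SLAMF7 and 1.00 for MZB1. VTP50469 at 330 nM for 48 h gave −0.10, −0.52, 0.46 and 0.36 for the same genes. CD38 started at 0.143 and 0.142 CPM in the first experiment and at 3.67 and 3.54 CPM in the second.

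The wider program was read from 4 further gene lists, 12 plasma cell regulators, 12 surface receptors, 22 genes of the secretory pathway and 18 genes of the B cell program. List counts below are of the main fits, and how often such counts moved under other settings is given further down. With both inhibitors in KARPAS422 the secretory list moved in a single direction, 15 of 20 tested genes being lower and 0 higher, where 25.2% of all genes were lower, with a median log2 change of −0.60 against 0.101 over all genes. Among these were the ER chaperone HSPA5 (1107 and 1018 CPM to 513.6 and 422.3 CPM, −1.22, SE 0.11), the peroxiredoxin PRDX4 (−1.17), SDF2L1 (−1.40) and MANF (−1.14). The regulators were higher for 6 and lower for 2 of 10 (median 1.54), where 23.5% of all genes were higher, with the transcription factor ZBTB20 (2.80) and the elongation factor ELL2 (2.40, SE 0.48, 0.625 and 0.563 CPM to 3.04 and 3.48 CPM) higher and XBP1 (−1.55, SE 0.13, 104 and 98.9 CPM to 38.8 and 32.4 CPM) and IKZF1 (−0.72) lower. XBP1 drives the expansion of the secretory pathway. The surface list was higher for 5 and lower for 1 of 10 (against the same 23.5% higher and 25.2% lower), with the chemokine receptor CXCR4 (0.547 and 0.615 CPM to 24.6 and 21.7 CPM), FCRL5 (0.156 and 0.512 CPM to 20.2 and 15.4 CPM) and IL6ST (2.02) higher and CD320 (−1.23) lower. The B cell list was higher for 6 and lower for 7 of 17, and BACH2 (0.77, SE 0.13) was higher and PAX5 (−0.41, SE 0.12) and BCL6 (−0.41, SE 0.12) were lower.

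The single agents called fewer of these genes in KARPAS422. EPZ-6438 called 6 of 20 secretory genes, all lower (10% of all genes lower), with XBP1 (−0.66, SE 0.13, adjusted p = 0.0271) lower and ELL2 (1.69, SE 0.47, adjusted p = 0.0686) higher. VTP50469 called 1 of the 10 receptors, CXCR4 (2.08), where 3.38% of all genes were called, and XBP1 did not pass at −0.53 (SE 0.13, adjusted p = 0.120). In SuDHL10 with both inhibitors the secretory list was lower for 2 of 20 (7.93% of all genes lower), SPCS1 (−0.34) and SELENOK (−0.33), and XBP1 gave 0.19 (SE 0.10, adjusted p = 0.233). ELL2 (2.75, SE 0.69, from 0.293 and 0.140 CPM to 1.105 and 1.648 CPM) and ZBTB20 (1.44) were higher there, as was BACH2, from 0.410 and 0.984 CPM to 3.798 and 4.569 CPM (2.56, SE 0.35, adjusted p = 0.00230).

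With MI-503 the secretory list was lower for 14 and higher for 1 of 22 genes in KARPAS422 (26.3% of all genes lower), the exception being SSR3 (0.25), and higher for 16 and lower for 3 of 22 in SUDHL5 (26.3% of all genes higher). In KARPAS422 XBP1 fell from 118 and 125 CPM to 47.7 and 49.5 CPM (−1.31, SE 0.05), with HERPUD1 (−0.85), DNAJB11 (−0.42), SPCS2 (−0.35) and HSPA5 (−0.31, SE 0.03) lower. In SUDHL5 XBP1 rose by 0.31 (SE 0.05), with HSPA5 (1.57, SE 0.04), HSP90B1 (1.36), SPCS3 (0.89) and PDIA4 (0.69) higher and SEC61B (−0.25), TXNDC11 (−0.16) and DERL3 (−0.18) lower. Of the members, JCHAIN, POU2AF1 and SLAMF7 were called higher in KARPAS422 and lower in SUDHL5, MZB1 and FKBP11 higher in both and SDC1 higher in SUDHL5. The secretory list was higher for 7 and lower for 6 of 22 in DB (34.5% of all genes higher, 34.7% lower) and higher for 5 and lower for 6 of 22 in Farage (12.3% higher, 14.7% lower).

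IRF4, which acts beside PRDM1, rose in DB from 0.411 and 0.458 CPM to 6.20 and 5.07 CPM with MI-503 (3.68, SE 0.27), and fell in Farage from 248 and 252 CPM to 179 and 215 CPM (−0.39, SE 0.04, adjusted p = 0.000250). In both lines this was the direction of PRDM1. At the share of IGKC given above, the IRF4 level of Farage would give 2.21 and 2.27 CPM in the treated DB libraries, and its part in the IRF4 rise was not tested. The repressor BCL6 fell in DB from 888 and 852 CPM to 265 and 278 CPM (−1.69, SE 0.03), and rose in KARPAS422 (0.32, SE 0.03). PAX5, the factor of B cell identity, fell in all 4 lines with MI-503, with a log2 fold change of −0.52 for KARPAS422, −0.53 for DB, −0.22 for Farage and −0.59 for SUDHL5. BACH2, a repressor of PRDM1, rose in DB (0.20, SE 0.03) and in Farage (1.57, SE 0.39, 0.696 and 0.897 CPM to 2.99 and 2.04 CPM) and fell in KARPAS422 (−0.10, SE 0.03).

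**Figure D5:**
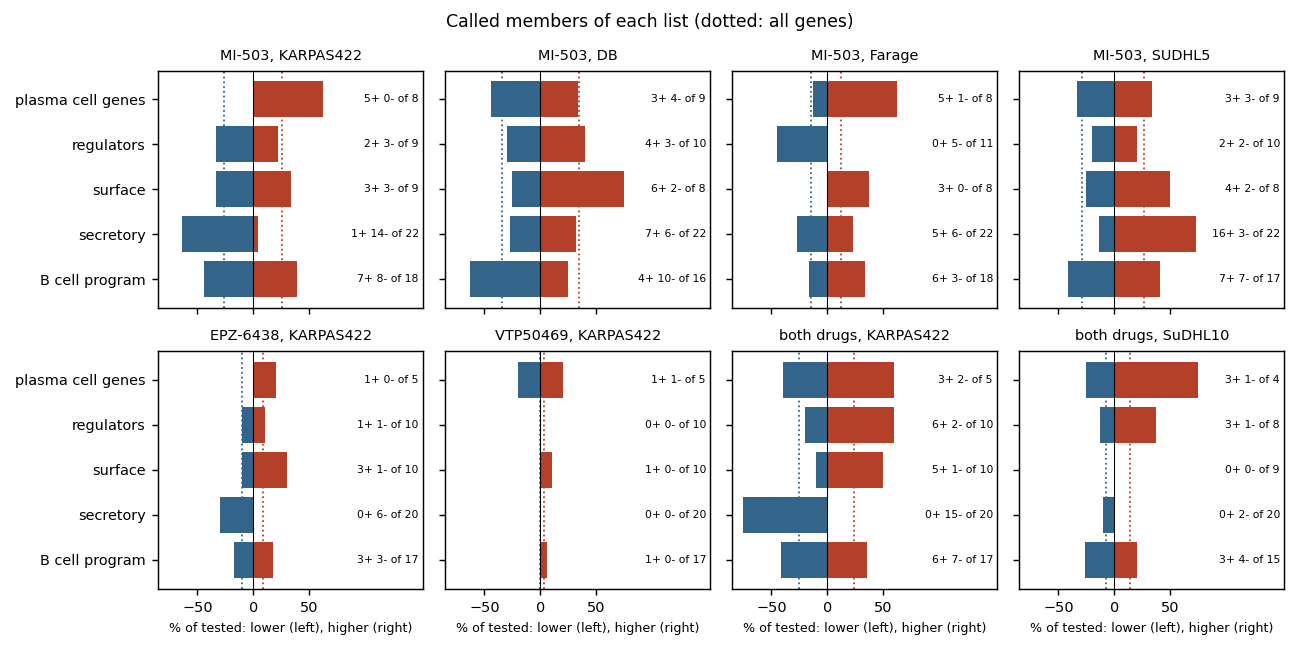
Share of the tested genes of each list that were called higher (right, red) or lower (left, blue) in 8 comparisons, with the counts beside each bar and the share of all genes as dotted lines. With both inhibitors in KARPAS422 15 of 20 secretory genes are lower and 0 higher, while 5 of 5 plasma cell genes are called, 3 higher and 2 lower.

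As a description of shared patterns, mean log2 CPM over the 8 line and treatment groups of the first table was compared with that of 10560 or 10561 genes with a mean of at least 5 CPM. The groups share lines and libraries, so these values carry no test. PRDM1 was most like VDAC3 (Pearson r = 0.987), NLRC5 (0.980) and the immunoglobulin light chain IGKC (0.976). CD38 was most like CXXC5 (0.997), MZB1 most like IKZF2 (0.997), JCHAIN most like CD74 (0.995) and SLAMF7 most like RPL32P29 (0.997), and for SDC1 no gene exceeded 0.933 (TTC32). Among themselves the members ranged from r = −0.974 between POU2AF1 and CD38 to 0.899 between CD38 and MZB1.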

How the data were processed

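RNA-seq of 32 libraries was analysed from 2 deposited tables that give unnormalized counts for each gene. Processing notes of the submitters name HISAT2 2.1.0, featureCounts 1.6.1 and the hg38 build, and per the study's methods the authors tested these counts with DESeq2. Groups follow the sample labels, and doses and times come from the study's figure legends. The members and the gene lists were chosen with earlier results of these data known. All 9 members are kept, and from the other lists up to 4 genes with the smallest p per comparison, those called against the majority, and IRF4, XBP1, BCL6, BACH2 and PAX5 are named.

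Printed CPM were scaled by TMM over all genes and all 16 libraries of a table. For the fits, low genes were removed with filterByExpr and TMM was computed again within the libraries of each fit, and each comparison was fitted over all genes with edgeR's quasi-likelihood test (edgeR 4.0.16, limma 3.58.1, R 4.3.3), two-sided, with Benjamini-Hochberg adjustment. A gene was called at an adjusted p under 0.1, and calls past a 1.5-fold change are given beside. The fits were tested on simulated data. Alternatives were DESeq2 1.42.0, other scalings, no filter, thinning to equal depth, other sets of libraries, a replicate block and leaving out each library. Within the second table, libraries with the same number deviated together in all 12 pairs of groups (r = 0.401 to 0.805 in KARPAS422 and 0.124 to 0.647 in SuDHL10). The numbers were taken as pairs only in the fits with a replicate block. The main fits hold no block, so their calls and p-values ignore that pairing. No library pair agreed within sampling noise (chi-square per gene at least 1.76). Counts cover no error beyond these libraries, and levels between genes were compared only per kilobase of exon. Counting used no stated strand, so exons that overlap other genes (FKBP11 with CCDC65, JCHAIN with a long noncoding RNA, POU2AF1 with a pseudogene) cannot be separated. FKBP11 also shares 239 exon bases with another protein-coding gene on the same strand, which strand would not separate. Deposited sgRNA counts of a CRISPR screen were used for PRDM1 alone.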

Additional observations from a re-analysis of the deposited data

Results flagged for a closer look

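The response to MI-503 differed among KARPAS422, DB, Farage and SUDHL5 for 8 of the 9 genes, by an edgeR quasi-likelihood F-test of the interaction terms in 1 fit of all 16 libraries, where 57.2% of all genes did. The adjusted p was 1.003e-05 for PRDM1, 8.432e-09 for POU2AF1, 6.528e-05 for CD38 and 0.0002207 for SLAMF7. It was 3.375e-08 for JCHAIN, 1.068e-07 for MZB1 and 2.139e-08 for FKBP11. For SDC1 it was 0.02424, in a test that includes the Farage DMSO libraries, which had 0 counts. That test was not repeated without Farage. In fits of each line alone, the SDC1 log2 fold change was −0.07 in KARPAS422 and 1.32 in SUDHL5. The members that moved in opposite directions between lines, each called in its own line, were PRDM1 (2.59 in DB and −0.53 in Farage), POU2AF1 (0.18 in KARPAS422 and −0.73 in DB), CD38 (0.37 in Farage and −0.44 in DB), JCHAIN (0.63 in KARPAS422 and −0.34 in SUDHL5), MZB1 (0.64 in SUDHL5 and −0.60 in DB), FKBP11 (0.30 in KARPAS422 and −0.90 in DB) and SLAMF7 (0.43 in Farage and −1.49 in SUDHL5). The SLAMF7 value in SUDHL5 was −2.44 in the deep and −0.16 in the shallow pair of libraries, and its call was lost without the first DMSO or the second MI-503 library and with DESeq2. Depth and treatment went together in DB and cannot be told apart there.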

How the results depend on the processing

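Of 3451 member values under alternatives, 3239 kept their side of the threshold (39 of them with the opposite sign and no call in either), 157 lost the call, 52 gained one and 3 reversed. The reversals were FKBP11 between KARPAS422 and Farage at baseline (0.15 with total counts alone), SLAMF7 between KARPAS422 and SUDHL5 at baseline (−0.79 to 0.07 over the fits leaving out a library, the latter without the first SUDHL5 DMSO library) and POU2AF1 with both inhibitors against EPZ-6438 in KARPAS422 (−0.32 to 0.18, the former without the first library with both). The cause was not tested.

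Member counts moved as follows. DESeq2 gave 3 for MI-503 in KARPAS422 and 3 in Farage, where it gave JCHAIN no adjusted p. No filter gave 1 for the KARPAS422 minus Farage response, 3 for both inhibitors in KARPAS422, and 2 against EPZ-6438 and 2 against VTP50469 in SuDHL10. EPZ-6438 in KARPAS422 gave 2 with RLE size factors, total counts, DESeq2, the replicate block, thinning, or the compared groups alone. VTP50469 in KARPAS422 gave 1 with total counts or thinning. The compared groups alone gave 3 for both inhibitors in KARPAS422 and 3 against VTP50469 in SuDHL10, where thinning gave 0. In SuDHL10 the replicate block gave 2 for VTP50469, 4 for both against EPZ-6438, 3 for both against VTP50469 and 1 for additivity.

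Leaving out each library gave 3 to 5 members for MI-503 in KARPAS422, 2 to 6 in Farage, 0 to 3 for the KARPAS422 minus Farage response and 3 to 6 for Farage minus SUDHL5. In KARPAS422 it gave 0 to 2 for EPZ-6438, 0 to 2 for VTP50469, 2 to 5 for both, 0 to 4 for both against either agent and 0 to 2 for additivity. In SuDHL10 it gave 0 to 1 for EPZ-6438, 2 to 4 for both, 0 to 2 against EPZ-6438 and 0 to 3 against VTP50469.

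Over all genes, the block moved the SuDHL10 calls from 1999 to 4490 (EPZ-6438), 0 to 463 (VTP50469), 2469 to 5306 (both), 510 to 3790 (both against EPZ-6438), 1308 to 5761 (both against VTP50469) and 6 to 2544 (additivity), and those of both against EPZ-6438 in KARPAS422 from 2766 to 6028. DESeq2 moved MI-503 in Farage from 3421 to 1723 and VTP50469 in KARPAS422 from 447 to 941. In the MI-503 table numbers did not pair the libraries (r = −0.332 to 0.143), and the block changed the member count from 5 to 6 for Farage minus SUDHL5 and from 8 to 7 for KARPAS422 against Farage. Crossing the SUDHL5 numbers, chosen after seeing the data, gave 7803 calls against 7362 without and 6904 with the block. With total counts alone the share of calls that were higher moved from 45.5% to 62.0% (MI-503, Farage), 45.2% to 66.5% (EPZ-6438, KARPAS422), 94.2% to 74.7% (VTP50469, KARPAS422), 48.3% to 64.7% (both, KARPAS422), 42.4% to 65.5% (both against VTP50469, KARPAS422), 69.2% to 89.4% (EPZ-6438, SuDHL10), 63.3% to 86.9% (both, SuDHL10) and 74.8% to 91.6% (both against VTP50469, SuDHL10). Depth limits the low genes, such as CD38 in KARPAS422 of the MI-503 table (2 to 13 counts a library) and PRDM1 in DB DMSO (4 and 6 counts).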

Other observations

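The deposited CRISPR screen held 4 sgRNAs against PRDM1, in 1 library per line and day, so no test was made. From day 0 to day 14, centred on 48 control sgRNAs with at least 30 counts at day 0 and with a pseudocount of 1, their log2 changes in KARPAS422 were −0.75, −0.68, −1.08 and −0.69. The controls of that line ran from −2.58 to 2.08 (SD 0.64). In K562, a leukemia line of the erythroid and myeloid lineages, the 4 values were 0.67, −0.53, −0.14 and 0.49, with controls from −7.36 to 2.4 (SD 1.33). The median of the 4 was −0.72 in KARPAS422, where each lay more than 1 SD of the controls below 0, and 0.18 in K562. The 4 sgRNAs share their libraries and are not replicates. The share of other targeting sgRNAs that lay as low was not computed, so these values do not show an effect of PRDM1. All 8 values lay within the range of the controls. That range is set by the most extreme single sgRNAs, so it cannot show the absence of an effect.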
